A study of Mus musculus with 12 samples.

Results

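The 8 genes described here encode Lin28a, Lin28b, Trim71, Igf2bp1, Igf2bp2, Igf2bp3, Hmga1 and Hmga2, proteins that are abundant in embryos and withdrawn from many tissues as development proceeds. They were taken by gene symbol from the count tables, and all 8 were found among 55228 genes. The samples were mesenchyme of female wild-type CD-1 mouse embryos that received no treatment, in 4 groups of 3 libraries: E18.5 bladder, E14.5 bladder, E18.5 urethral and E14.5 urethral mesenchyme. Each library pooled the female embryos of a single litter, and 3 independent litters were used at each stage. Epithelium had been removed by trypsin and forceps, so the libraries hold whole mesenchymal layers with any epithelium, vessel or nerve that came with them. In such bulk samples, fewer cells of a type and less RNA per cell cannot be told apart. Each stage also has a count table of its own, so stage and any difference in handling between the tables cannot be told apart.

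These genes belong to a developmental timing circuit first described in Caenorhabditis elegans. Lin28a and Lin28b bind the precursors of let-7 microRNAs and block their maturation, while mature let-7 represses mRNAs that carry sites matching its seed, among them those of Lin28, Trim71, Igf2bp and Hmga2. Trim71, the mouse counterpart of worm LIN-41, is an RNA-binding protein of the Trim-NHL family that represses mRNAs in stem and progenitor cells. The Igf2bp proteins bind, stabilise and localise mRNAs, including that of the growth factor Igf2, and read the m6A mark. Hmga1 and Hmga2 are small proteins that bind AT-rich DNA in chromatin, and loss of Hmga2 gives the pygmy mouse. Several of these genes are silent or low in adult tissue and return in tumours, hence the name oncofetal.

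The let-7 family shares its seed, bases 2 to 8 of the microRNA, which is shown in capitals because the sites in the mRNAs of these genes are its complement. RefSeq (GRCm38.p6) listed 13 mature entries with this seed, which come to 11 distinct sequences. Of these, 5 are shown 5′ to 3′ to display the constant seed and the variable remainder.
let-7a-5p: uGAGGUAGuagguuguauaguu
let-7b-5p: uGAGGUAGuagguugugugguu
let-7d-5p: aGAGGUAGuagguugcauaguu
let-7g-5p: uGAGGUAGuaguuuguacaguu
miR-98-5p: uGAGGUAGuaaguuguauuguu

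The 8 letters CTACCTCA, the complement of the seed followed by A, were searched for on the transcript strand of the annotated 3′ UTRs, without mismatches. Of 20981 genes with an annotated 3′ UTR, 634 (3.02%) held the 8 letters and 1879 (8.96%) held the 7 letters CTACCTC that they contain. Of the 8 genes, 7 held the 8 letters: Trim71 at 4 places, Igf2bp1 at 3, Lin28a at 2, and Lin28b, Igf2bp2, Igf2bp3 and Hmga2 at 1 each. The 7 letters, counted with those inside the 8, stood at 4 places each in Lin28b, Trim71, Igf2bp1 and Hmga2. Lin28a held them at 2 places, and Igf2bp2, Igf2bp3 and Hmga1 at 1 each. Hmga1 held the 8 letters at none. Longer UTRs hold more matches. Among UTRs within 75% to 125% of the length of the Trim71 UTR, 10.3% held a match and 0.097% held as many as 4, while 5.48% of those near the length of the Hmga2 UTR held a match. The match nearest the stop codon of each gene is shown 5′ to 3′ with the 14 bases before it, on GRCm38 and on the minus strand in every case, with the 8 letters in capitals. A match describes the letters only.
Lin28a, chr4:134005189-134005210: cacagcctgttgaaCTACCTCA
Lin28b, chr10:45381022-45381043: cccgggcgggaagtCTACCTCA
Trim71, chr9:114512472-114512493: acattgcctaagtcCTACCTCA
Igf2bp1, chr11:95961778-95961799: ctgtgcgaagtaaaCTACCTCA
Igf2bp2, chr16:22059473-22059494: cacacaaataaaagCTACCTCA
Igf2bp3, chr6:49086787-49086808: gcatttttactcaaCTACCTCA
Hmga2, chr10:120364224-120364245: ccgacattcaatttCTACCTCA

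Total counts ranged from 21495169 to 36349777 per library, so 3 counts correspond to 0.0825 to 0.1396 CPM, the count scaled to the library total. All 9 mesenchymal markers had counts in every library. Markers of epithelium were also present. Their summed level, over 15 genes, was 10570 to 14080 CPM in E18.5 bladder against 324 to 1773 CPM in E14.5 bladder, and 3882 to 5790 CPM in E18.5 urethral against 902 to 2146 CPM in E14.5 urethral mesenchyme. All 15 rose with stage in bladder and 8 of 15 in urethral mesenchyme, against 23.7% and 13.6% of all genes. On the first principal component, the replicate 1 library of each E14.5 group was displaced towards E18.5 relative to the other libraries of its group, and it held the highest epithelial sum of its group, with 1773 CPM in bladder and 2146 CPM in urethral mesenchyme. Replicate 1 also held the highest neuronal, glial, skeletal muscle, mesothelial and smooth muscle sums of its group in both compartments. Its mesenchymal, endothelial, leukocyte, red blood cell and germ cell sums were highest in a single compartment only. In this text, levels are CPM scaled by TMM factors, log2 differences are given ± SE, and adjusted p values come from edgeR's quasi-likelihood test, with 0.05 as the threshold and adjustment over all 18805 genes tested.

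In bladder mesenchyme, 5 of the 7 genes tested fell between E14.5 and E18.5 (Lin28b, Igf2bp1, Igf2bp2, Igf2bp3 and Hmga2), Trim71 rose, and Hmga1 did not pass the threshold. Of all genes tested, 22.0% fell and 23.7% rose in that comparison. In urethral mesenchyme 6 of 7 fell, the same 5 and Trim71, none rose, and Hmga1 again did not pass, against 10.8% of all genes falling and 13.6% rising. Those urethral shares moved with single libraries: 2028 genes fell and 2558 rose with all libraries, against 890 and 1461 without E14.5 urethral replicate 3, and without E18.5 urethral replicate 1, 2 or 3 the falls numbered 1310, 1001 and 1004, and 1705 genes rose without replicate 2. Lin28a was too low to be tested. The median log2 change of the 7 genes was -0.73 in bladder against -0.02 over all genes, and -1.24 in urethral mesenchyme against -0.06 over all genes. E18.5 and E14.5 libraries did not overlap for 6 of the 7 genes in bladder, where 27.3% of all genes were lower and 28.5% higher without overlap, and for 5 of 7 in urethral mesenchyme, where the shares were 22.7% and 21.3%.

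**Figure D1:**
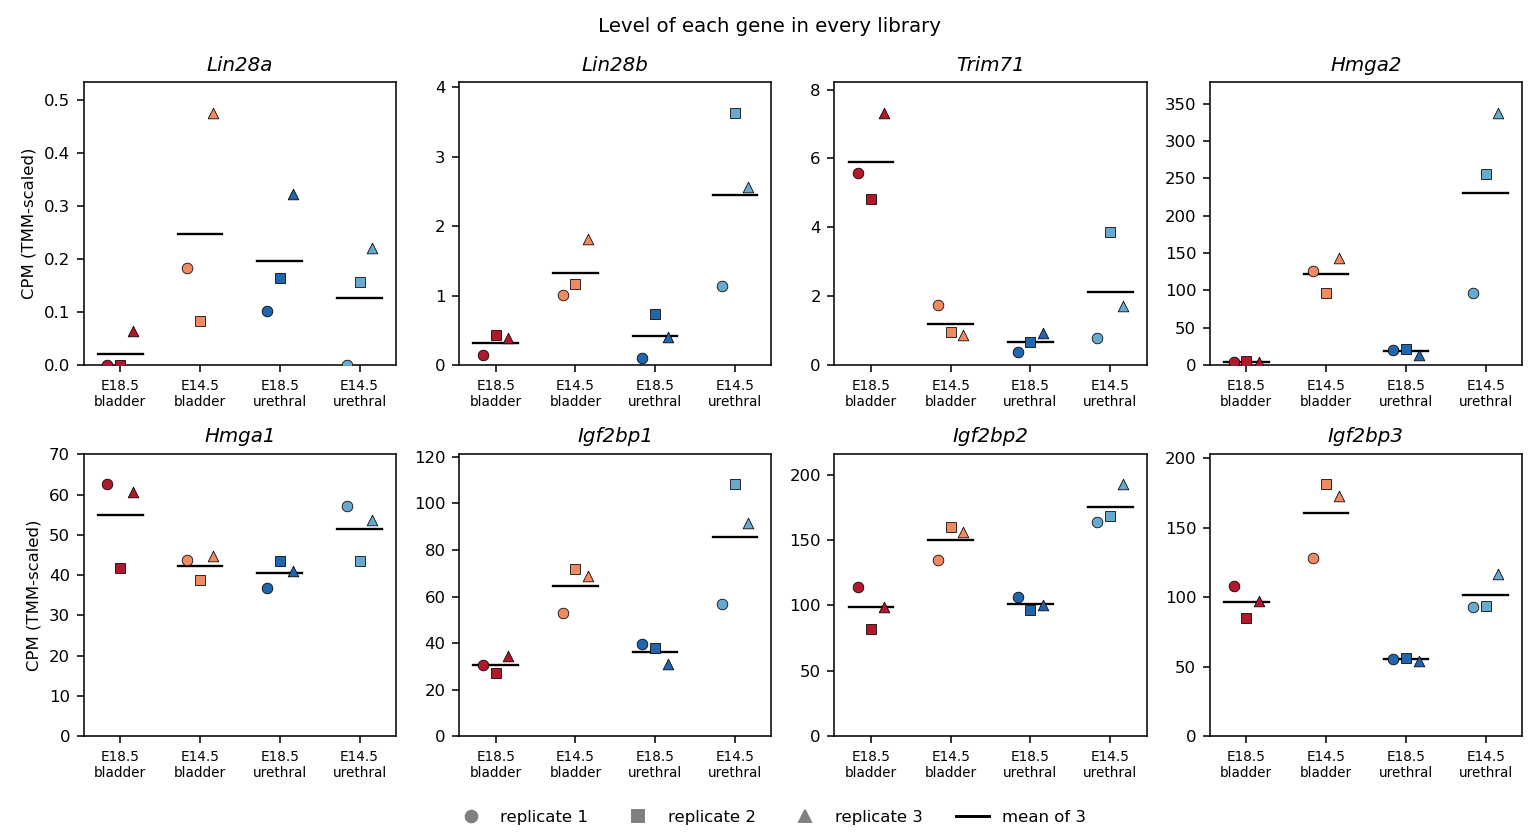
Level of each of the 8 genes (y axis, TMM-scaled CPM, linear from 0) in every library, by group, with 1 symbol per replicate and a line at the mean of 3. Hmga2 lies at 3.42 to 5.52 CPM in E18.5 bladder against 97.0 to 143 CPM in E14.5 bladder, and Trim71 is highest in the 3 E18.5 bladder libraries.

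Lin28a (GRCm38 chr4:134003330-134018841, minus strand) was near the limit of detection in all groups. E18.5 bladder libraries had 0, 0 and 2 counts and E14.5 bladder libraries 4, 2 and 11. E18.5 urethral libraries had 4, 4 and 11 counts and E14.5 urethral libraries 0, 6 and 6. The bladder groups tied at 2 counts. They were apart only after scaling, at 0.064 CPM in E18.5 replicate 3 against 0.0829 CPM in E14.5 replicate 2. The urethral groups overlapped. After allowing for library size, the ratio of E18.5 to E14.5 bladder was 0.106 with an exact binomial 95% interval of 0.0119 to 0.447, and that of E18.5 to E14.5 urethral mesenchyme was 1.48 with an interval of 0.684 to 3.35. These intervals cover counting error only, and since both reads of a pair appear to have been counted they are narrower than those of independent fragments.

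Lin28b (chr10:45376620-45486395, minus strand), the paralog of Lin28a, was low but detected in every library. Its level was 0.149, 0.429 and 0.384 CPM in E18.5 bladder libraries against 1.01, 1.16 and 1.82 CPM in E14.5 bladder libraries (log2 difference -2.05 ± 0.66, adjusted p = 0.0235). It was 0.102, 0.738 and 0.409 CPM in E18.5 urethral libraries against 1.14, 3.64 and 2.57 CPM in E14.5 urethral libraries (log2 difference -2.61 ± 0.63, adjusted p = 0.011). Every E18.5 library lay below every E14.5 library of its compartment. The urethral fall was the 58th lowest of the 18805 log2 changes in that comparison. Only 24 counts over the 3 libraries of E18.5 bladder lie behind its value, against 92 in E14.5 bladder. The bladder call ended without E14.5 bladder replicate 3 (adjusted p = 0.0835) or E18.5 bladder replicate 1 (adjusted p = 0.0855), and without E18.5 urethral replicate 2 the urethral log2 difference was -3.27.

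Trim71 (chr9:114507133-114564369, minus strand) was the only gene of the 7 for which the difference of the stage changes between the compartments passed the threshold. Its level was 5.57, 4.83 and 7.33 CPM in E18.5 bladder libraries against 1.74, 0.953 and 0.865 CPM in E14.5 bladder libraries, a rise of 4.99-fold (log2 difference 2.32 ± 0.53, adjusted p = 0.00344). In urethral mesenchyme it was 0.381, 0.656 and 0.935 CPM at E18.5 against 0.794, 3.87 and 1.73 CPM at E14.5 (log2 difference -1.71 ± 0.54, adjusted p = 0.0355). The bladder groups did not overlap. In urethral mesenchyme the highest E18.5 library exceeded the lowest E14.5 library. The bladder stage change minus the urethral was 4.03 ± 0.75 on the log2 scale (adjusted p = 0.0073), in a contrast where 4.64% of all genes were called higher and 4.03% lower. That value ranged between 3.26 without E14.5 urethral replicate 2 and 4.81 without both E14.5 replicate 1 libraries, and the call held in all 20 alternatives.

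The urethral call of Trim71 ended in 8 of 21 alternatives. The gene had 3.87 CPM in replicate 2 of E14.5, and without that library the log2 difference was -0.94 (adjusted p = 0.176). The call also ended without E14.5 urethral replicate 3 (adjusted p = 0.0631), and without E18.5 urethral replicate 1 (0.118), 2 (0.095) or 3 (0.0505). It ended with limma-voom (adjusted p = 0.0649), in a fit of the urethral libraries alone (adjusted p = 0.0802) and with the replicate number as a block (adjusted p = 0.0632). The bladder rise passed in all 21 alternatives.

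Marker lists of other tissues moved in bladder beside Trim71, where 23.7% of all genes rose and 22.0% fell. Epithelial markers rose in 15 of 15 and smooth muscle markers in 8 of 8, the smooth muscle list summing to 25500 to 46330 CPM in E18.5 bladder against 7612 to 9952 CPM in E14.5 bladder. Mesothelial markers rose in 4 of 7, with sums of 1810 to 2604 CPM in E18.5 bladder against 188 to 759 CPM in E14.5 bladder. Krt19, a keratin that is also on the epithelial list, is 1 of these 4 and had 1211 ± 335 CPM in E18.5 bladder against 135 ± 104 CPM in E14.5 bladder. Leukocyte markers rose in 4 of 9. Glial markers rose in 2 of 7 and skeletal muscle markers in 3 of 11, shares near that of all genes. The skeletal muscle list summed to 693 to 1189 CPM in E18.5 bladder against 7.35 to 35.6 CPM in E14.5 bladder, carried by Ckm (599 ± 120 CPM at E18.5), Tnnt3 (280 ± 116 CPM) and Myh8 (120 ± 74.4 CPM). The muscle regulators Myod1, Myog and Myf5 had lower means in E18.5 than in E14.5 bladder and did not pass. Every epithelial, mesothelial and smooth muscle gene had counts in all 12 libraries.

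Germ cells express Trim71 as well. Their 8 markers summed to 18.7 to 26.1 CPM in E18.5 bladder against 3.63 to 14.3 CPM in E14.5 bladder, and to 22.7 to 23.7 CPM in E18.5 urethral against 23.4 to 38.1 CPM in E14.5 urethral mesenchyme. Of the 5 tested, Tfap2c rose in bladder to 16.9 ± 3.56 CPM at E18.5, against 2.36 ± 1.96 CPM at E14.5 (adjusted p = 0.000522). Tfap2c carried most of the E18.5 bladder sum. Its mean was 12.5 CPM in E18.5 urethral against 7.96 CPM in E14.5 urethral mesenchyme. Ddx4, a germ cell helicase, rose in bladder to 1.06 ± 0.668 CPM at E18.5, against 0.215 ± 0.155 CPM at E14.5 (adjusted p = 0.0098). Sall4, a zinc finger factor of stem and germ cells, fell in both compartments. It had 0.0498 ± 0.0863 CPM in E18.5 bladder against 0.526 ± 0.156 CPM in E14.5 bladder (adjusted p = 0.0234), and 0.513 ± 0.197 CPM in E18.5 urethral against 8.23 ± 5.36 CPM in E14.5 urethral mesenchyme (adjusted p = 0.00224). Nanos3 and Prdm1 had lower means in E18.5 than in E14.5 bladder, at 0.433 against 0.883 CPM and 3.17 against 4.78 CPM, and did not pass. Dazl, which was not tested, had 0.0998 CPM in E18.5 bladder against 0.231 CPM in E14.5 bladder. Pou5f1 had 0 counts in all 12 libraries and Dppa3 at most 2. The part of germ cells and of the other tissues in the Trim71 values was not tested.

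The Igf2bp genes all fell in both compartments, by at most 2.37-fold. Igf2bp1 (chr11:95957163-96005940, minus strand) had 30.5, 27.4 and 34.5 CPM in E18.5 bladder libraries against 53.0, 71.9 and 68.8 CPM in E14.5 bladder libraries (log2 difference -1.07 ± 0.21, adjusted p = 0.00135). It had 39.7, 37.8 and 31.1 CPM in E18.5 urethral libraries against 56.8, 108 and 91.5 CPM in E14.5 urethral libraries (log2 difference -1.24 ± 0.21, adjusted p = 0.00179). In both compartments replicate 1 was the lowest E14.5 library, and still above all E18.5 libraries.

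Igf2bp2 (chr16:22059009-22163299, minus strand), the family member that persists in adult tissues, had the smallest log2 changes of the 3. It had 114, 82.1 and 99.1 CPM in E18.5 bladder libraries against 135, 159.9 and 156 CPM in E14.5 bladder libraries (log2 difference -0.61 ± 0.13, adjusted p = 0.00215). In urethral mesenchyme it had 107, 96.7 and 100.2 CPM at E18.5 against 164, 169 and 193 CPM at E14.5 (log2 difference -0.79 ± 0.13, adjusted p = 0.00152). The groups did not overlap in either compartment.

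Igf2bp3 (chr6:49085223-49214957, minus strand) was the only Igf2bp gene called between the compartments. It had 108, 85.3 and 97.3 CPM in E18.5 bladder libraries against 128, 181 and 173 CPM in E14.5 bladder libraries (log2 difference -0.73 ± 0.14, adjusted p = 0.00137). In urethral mesenchyme it had 55.8, 56.5 and 53.8 CPM at E18.5 against 93.0, 94.0 and 117 CPM at E14.5 (log2 difference -0.87 ± 0.15, adjusted p = 0.00168). Bladder exceeded urethral mesenchyme at E18.5 (log2 difference 0.81 ± 0.15, adjusted p = 0.000944) and at E14.5 (0.67 ± 0.14, adjusted p = 0.0062), with no overlap at either stage. These calls held in all 21 alternatives. Exons of Malsu1 on the opposite strand cover 18.7% of the exon bases of Igf2bp3, and whether the counting used strand is not given in the sources used here, so some of its counts may belong to Malsu1.

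Per kilobase of exon, Igf2bp2 made up 46.8% ± 1.55 of the summed Igf2bp level in E18.5 bladder and 43.7% ± 2.19 in E14.5 bladder, and 56.5% ± 1.69 in E18.5 urethral against 52.8% ± 3.08 in E14.5 urethral mesenchyme (SD, n = 3 each). Igf2bp3 held 41.9% ± 0.849 in E18.5 bladder and 42.1% ± 1.87 in E14.5 bladder, and 28.1% ± 1.02 in E18.5 urethral against 27.7% ± 2.04 in E14.5 urethral mesenchyme. The Igf2bp3 shares of the stages overlapped in each compartment, while those of the compartments did not overlap at either stage. Igf2bp1 held 11.3% ± 1.24 in E18.5 bladder against 14.3% ± 0.316 in E14.5 bladder, and 15.4% ± 1.45 in E18.5 urethral against 19.5% ± 4.88 in E14.5 urethral mesenchyme.

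Hmga2 (chr10:120361275-120476469, minus strand) had the largest log2 stage changes of the 7 genes tested. It had 3.89, 5.52 and 3.42 CPM in E18.5 bladder libraries against 125, 97.0 and 143 CPM in E14.5 bladder libraries, a 28.8-fold fall (log2 difference -4.85 ± 0.45, adjusted p = 2.1e-05). It had 20.5, 21.3 and 13.8 CPM in E18.5 urethral libraries against 96.2, 256 and 338 CPM in E14.5 urethral libraries, a 12.4-fold fall (log2 difference -3.64 ± 0.41, adjusted p = 0.000388). Groups were far apart in both compartments. Of 18805 log2 changes, that of Hmga2 was the 26th lowest in bladder and the 30th lowest in urethral mesenchyme. At E18.5 bladder was lower than urethral mesenchyme (log2 difference -2.13 ± 0.42, adjusted p = 0.00224). At E14.5 the difference of -0.92 ± 0.37 did not pass (adjusted p = 0.0952), and neither did the difference of the stage changes, -1.21 ± 0.55 (adjusted p = 0.205). The 2 stage calls and the E18.5 call held in all 21 alternatives.

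Hmga1 (chr17:27556497-27563674, plus strand), the other family member, was not called between the stages. It had 62.6, 41.8 and 60.7 CPM in E18.5 bladder libraries against 43.6, 38.8 and 44.7 CPM in E14.5 bladder libraries, and the groups overlapped (log2 difference 0.38 ± 0.16, adjusted p = 0.0684). In urethral mesenchyme it had 36.9, 43.6 and 41.1 CPM at E18.5 against 57.1, 43.4 and 53.8 CPM at E14.5, again with overlap (log2 difference -0.34 ± 0.16, adjusted p = 0.133). At E18.5 it was higher in bladder than in urethral mesenchyme (log2 difference 0.44 ± 0.16, adjusted p = 0.0459), with overlapping groups. That call ended with the replicate number as a block (adjusted p = 0.0678), and was kept in 5 of 22 alternatives. Hmga1 shares 40.1% of its 100-base windows with its copy Hmga1b, so the counts of both are uncertain. The difference of its stage changes was 0.72 ± 0.22 (adjusted p = 0.0663), and passed in 2 of 21 alternatives. With the copies summed the E18.5 compartment difference was 0.35 ± 0.17 (adjusted p = 0.129).

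**Figure D2:**
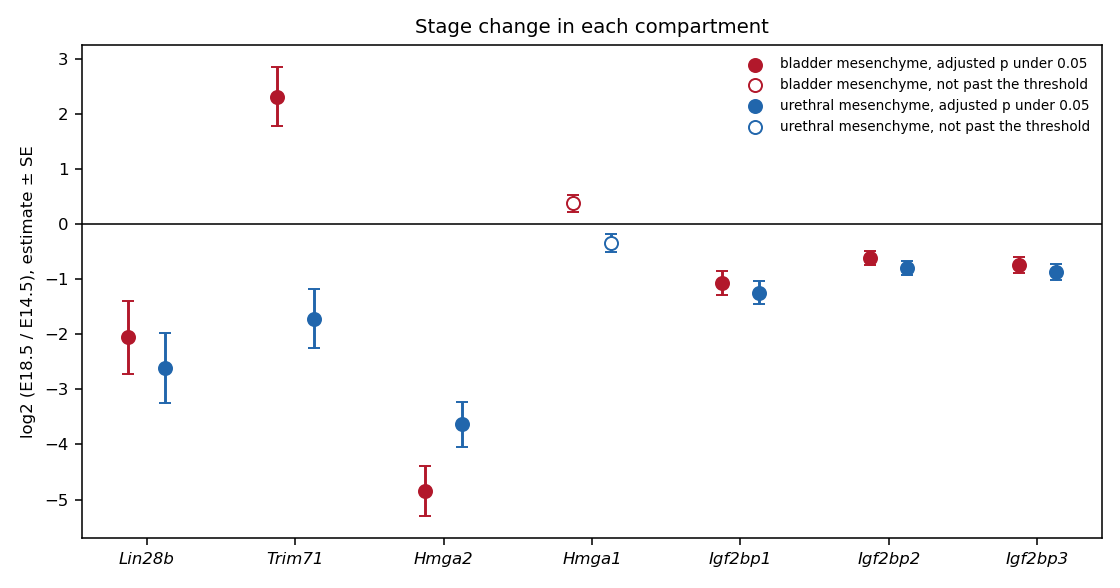
Log2 ratio of E18.5 to E14.5 (y axis, estimate with SE bars, 3 libraries per group) for the 7 genes tested, in bladder (red) and urethral mesenchyme (blue). Filled points passed an adjusted p of 0.05; the Trim71 points lie on opposite sides of 0 (2.32 in bladder and -1.71 in urethral mesenchyme), and the Hmga1 points are open.

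Between the compartments, Igf2bp3 was the only called gene at E14.5, against 12.4% of all genes higher and 12.5% lower in bladder. At E18.5, Trim71, Igf2bp3 and Hmga1 were called higher and Hmga2 lower in bladder, against 18.52% and 16.2% of all genes. The libraries did not overlap for 2 of the 7 genes at E14.5, Igf2bp3 higher and Igf2bp2 lower in bladder, where 19.3% of all genes were higher and 18.47% lower without overlap. At E18.5 they did not overlap for 3 of 7, Trim71 and Igf2bp3 higher and Hmga2 lower, where the shares were 27.9% and 24.2%. Trim71 was higher in bladder at E18.5 (log2 difference 3.17 ± 0.55, adjusted p = 0.000741), and had 5.57, 4.83 and 7.33 CPM in bladder libraries against 0.381, 0.656 and 0.935 CPM in urethral libraries. Lin28b, Igf2bp1 and Igf2bp2 were not called at either stage. For Igf2bp2 the E18.5 difference was -0.04 ± 0.13 and for Lin28b -0.33 ± 0.70, the larger error going with the lower counts. Without both E14.5 replicate 1 libraries, 3 further genes were lower in bladder at E14.5: Hmga2 (log2 difference -1.32, adjusted p = 0.00364), Igf2bp1 (-0.52, adjusted p = 0.0342) and Trim71 (-1.64, adjusted p = 0.0302). Across all genes the E14.5 compartment difference correlated with exon length (Spearman's rho = -0.212 across 18805 genes, which are not independent replicates).

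Ordered by CPM per kilobase of exon, the 8 genes stood differently at the 2 stages. In E18.5 bladder Hmga1 led with 25.9 ± 5.42, clear of Igf2bp2 with 13.3 ± 2.17 and Igf2bp3 with 11.9 ± 1.38, which overlapped each other. Igf2bp1 followed with 3.18 ± 0.37, then Trim71 with 0.633 ± 0.138 and Hmga2 with 0.632 ± 0.163, also overlapping, then Lin28b with 0.0354 ± 0.0166 and Lin28a with 0.00534 ± 0.00925 (SD, n = 3). In E14.5 bladder the libraries of each of the 4 leading genes overlapped those of the next: Igf2bp2 at 20.3 ± 1.84, Hmga1 at 19.9 ± 1.49, Igf2bp3 at 19.7 ± 3.5 and Hmga2 at 17.99 ± 3.45. Igf2bp1 stood apart below them at 6.67 ± 1.05, and Lin28b, Trim71 and Lin28a, each overlapping the next, ended the order at 0.146 to 0.0618. Hmga2 thus lay among the leading genes at E14.5 and level with Trim71 at E18.5.

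In E18.5 urethral mesenchyme the order was Hmga1 (19.1 ± 1.59), Igf2bp2 (13.7 ± 0.684), Igf2bp3 (6.78 ± 0.167), Igf2bp1 (3.74 ± 0.467) and Hmga2 (2.73 ± 0.61), with no overlap between neighbours, followed by Trim71, Lin28a and Lin28b at 0.0704 to 0.0459, which overlapped. In E14.5 urethral mesenchyme Hmga2 came first at 34.0 ± 18.1, overlapping Hmga1 at 24.2 ± 3.35, which overlapped Igf2bp2 at 23.6 ± 2.11. Igf2bp3 at 12.4 ± 1.66 and Igf2bp1 at 8.83 ± 2.72 followed, each clear of its neighbours, and Lin28b, Trim71 and Lin28a ended the order at 0.27 to 0.0315.

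Replicate 1 of E14.5 was placed for each gene on a scale where 0 is the mean of the other 2 E14.5 libraries and 1 the mean of the 3 E18.5 libraries of its compartment, in log2 CPM. Genes were placed only if called between stages in a fit without both replicate 1 libraries, which left 6 of the 7 genes, all but Hmga1, in each compartment. Of all genes in that fit, 24.5% were called higher and 20.9% lower at E18.5 in bladder. The shares were 15.8% and 11.3% in urethral mesenchyme. Over the 8903 genes called in bladder the median position was 0.288, with quartiles at 0.078 and 0.476. Over the 5312 genes called in urethral mesenchyme it was 0.352, with quartiles at 0.135 and 0.557. In bladder, Lin28b (0.245), Igf2bp2 (0.332), Igf2bp1 (0.341) and Trim71 (0.342) lay between the quartiles, Igf2bp3 lay above them at 0.53, and Hmga2 below them at -0.02. Replicate 1 was thus at the level of its group for Hmga2, with 125 CPM between the 97.0 and 143 CPM of the others.

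In urethral mesenchyme Igf2bp2 (0.167), Igf2bp3 (0.187), Hmga2 (0.402), Lin28b (0.467) and Igf2bp1 (0.552) lay between the quartiles, and Trim71 lay above them at 0.833. The replicate spread, as a share of the stage change, was 0.321 for Lin28b and 0.341 for Trim71 in urethral mesenchyme, against 0.082 for Hmga2, so positions of the 2 low genes are loose. Without replicate 3 the position of Igf2bp3 in urethral mesenchyme was 0.02. In bladder Lin28a also passed in that fit (2 counts at E18.5 and 13 in the E14.5 libraries kept, log2 change -3.23, adjusted p = 0.0453), at too few counts to be placed.

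**Figure D3:**
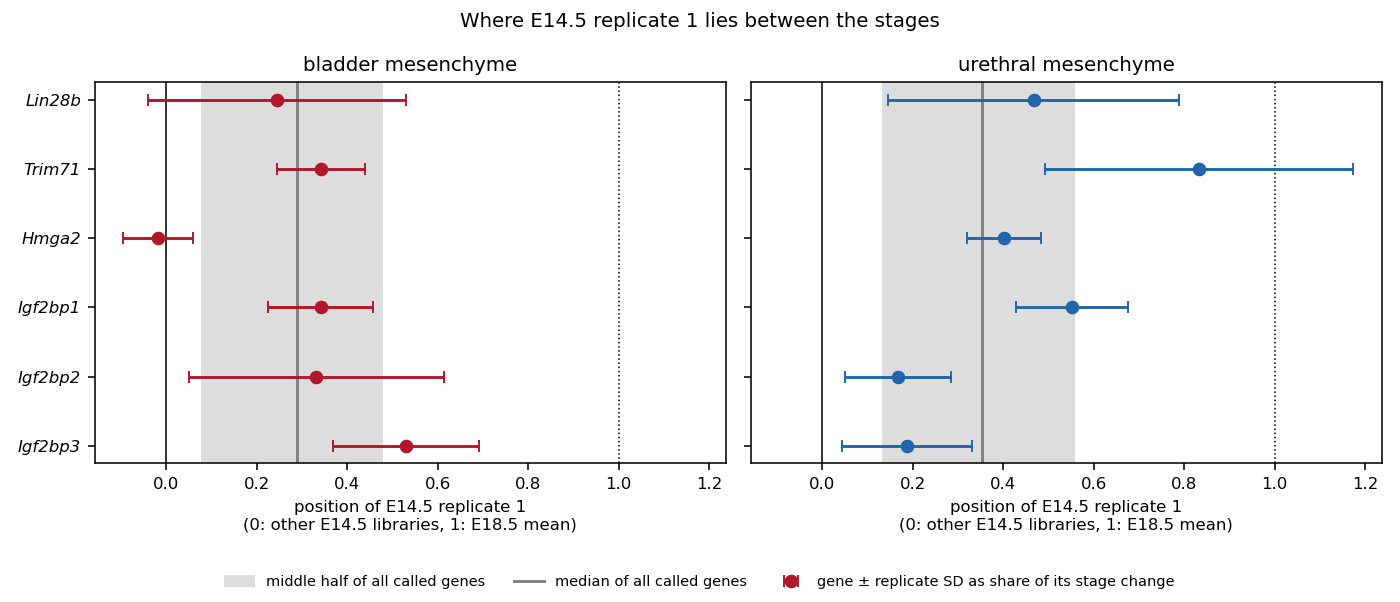
Position of E14.5 replicate 1 (x axis, no unit: 0 is the mean of the other E14.5 libraries, 1 the mean of the E18.5 libraries) for the 6 genes called without it, in bladder and urethral mesenchyme. Bars are the SD between the other libraries as a share of the stage change, the grey band runs between the quartiles of all called genes and the grey line is their median; Hmga2 lies at -0.02 in bladder and 0.402 in urethral mesenchyme.

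In bladder 22.0% of all genes fell and 23.7% rose, and in urethral mesenchyme 10.8% fell and 13.6% rose. Of 15 factors that make and destroy let-7, 5 fell and 2 rose in bladder, and 7 fell and none rose in urethral mesenchyme, with median log2 changes of -0.17 and -0.37. Tut4, which adds uridines to let-7 precursors held by Lin28, fell to 78.7 ± 6.8 CPM in E18.5 bladder, against 144 ± 24.3 CPM in E14.5 bladder (log2 difference -0.87 ± 0.14, adjusted p = 0.000418), and in urethral mesenchyme (log2 difference -0.57 ± 0.14, adjusted p = 0.0137). Hnrnpa1, an RNA-binding protein that restrains let-7a processing, fell in both (-0.91 ± 0.12, adjusted p = 8.06e-05 in bladder and -0.58 ± 0.12, adjusted p = 0.00437 in urethral mesenchyme). Ago4, an Argonaute that carries mature microRNAs, rose in bladder (0.99 ± 0.19, adjusted p = 0.00108). Drosha, the nuclease of the first processing step, fell in bladder (-0.46 ± 0.16, adjusted p = 0.032) and urethral mesenchyme (-0.50 ± 0.16, adjusted p = 0.039). Khsrp in bladder (-0.17 ± 0.10) and Ago1 in urethral mesenchyme (-0.37 ± 0.13) were the most abundant that did not pass.

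Poly(A)-selected libraries do not measure mature let-7. Of 16 host and precursor transcripts listed, 15 were in the tables and 4 were tested. Of these 4, 1 fell and none rose in each compartment. Of all genes, 22.0% fell and 23.7% rose in bladder, and 10.8% fell and 13.6% rose in urethral mesenchyme. Mir99ahg, whose gene holds let-7c-1, did not pass in bladder (-0.72 ± 0.35) or urethral mesenchyme (0.19 ± 0.34). Neither did Mir100hg (-0.39 ± 0.45 and -0.29 ± 0.44). Wdr82, whose gene holds let-7g, fell in bladder (log2 difference -0.85 ± 0.14, adjusted p = 0.000399) and urethral mesenchyme (-0.59 ± 0.14, adjusted p = 0.00976). Huwe1, which holds let-7f-2 and miR-98, did not pass in bladder (0.33 ± 0.21) or urethral mesenchyme (-0.27 ± 0.21).

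Of the other genes known as let-7 targets, 20 were tested, and 6 rose and 6 fell in bladder (median 0.01), where 23.7% of all genes rose and 22.0% fell. In urethral mesenchyme none rose and 3 fell (median -0.16), where the shares were 13.6% and 10.8%. Mycn, a transcription factor of the Myc family, fell to 6.52 ± 1.07 CPM in E18.5 bladder, against 20.7 ± 2.88 CPM in E14.5 bladder (log2 difference -1.66 ± 0.16, adjusted p = 1.55e-05), and fell in urethral mesenchyme (-1.11 ± 0.16, adjusted p = 0.000664). Nr6a1, an orphan nuclear receptor of early embryos, rose in bladder (1.19 ± 0.33, adjusted p = 0.0105). Cdc25a, a phosphatase that drives the cell cycle, fell in bladder (-0.48 ± 0.11, adjusted p = 0.00297) and urethral mesenchyme (-0.57 ± 0.11, adjusted p = 0.00311). Plagl2, a zinc finger factor, fell in urethral mesenchyme (-0.55 ± 0.17, adjusted p = 0.0352). Map4k4 in bladder (-0.18 ± 0.11) and Ccnd2 in urethral mesenchyme (-0.35 ± 0.16) did not pass.

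Genes with and without the letters were also counted. Apart from the 8 genes, 517 tested genes had a single 8-letter match, of which 23.4% fell and 25.5% rose in bladder, and 14.3% fell and 14.9% rose in urethral mesenchyme. Among the 14581 without a match 24.0% fell and 26.6% rose in bladder, and 12.4% fell and 15.8% rose in urethral mesenchyme. Of 25 genes with more than 1 match, 5 fell and 9 rose in bladder, and 5 fell and 4 rose in urethral mesenchyme. No test was made of these shares.

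Of 8 proteins known to bind RNA together with the Igf2bp family, 4 fell and 1 rose in bladder, where 22.0% of all genes fell and 23.7% rose, and 4 fell and none rose in urethral mesenchyme, where 10.8% fell and 13.6% rose. Elavl1, which stabilises AU-rich mRNAs, fell in bladder (log2 difference -0.56 ± 0.13, adjusted p = 0.00373) and urethral mesenchyme (-0.49 ± 0.13, adjusted p = 0.0155). Syncrip fell in bladder (-0.57 ± 0.16, adjusted p = 0.0112), and the helicase Dhx9 (-0.53 ± 0.18, adjusted p = 0.0454) and Hnrnpu (-0.39 ± 0.13, adjusted p = 0.0496) in urethral mesenchyme. The poly(A)-binding protein Pabpc1 rose in bladder (0.60 ± 0.15, adjusted p = 0.00533). Hnrnpu in bladder (-0.31 ± 0.13) and Pabpc1 in urethral mesenchyme (0.13 ± 0.15) did not pass. Of 13 writers, erasers and other readers of m6A, 5 fell and 1 rose in bladder and 5 fell and none rose in urethral mesenchyme, against the same shares. The reader Ythdf2 fell in bladder (-0.51 ± 0.13, adjusted p = 0.00679) and urethral mesenchyme (-0.52 ± 0.13, adjusted p = 0.0138). The writer subunit Wtap also fell in bladder (-0.65 ± 0.10, adjusted p = 0.000343) and urethral mesenchyme (-0.41 ± 0.10, adjusted p = 0.0146). Among other readers, Ythdf1 fell in both (-0.44 ± 0.13 in each), Ythdc2 in bladder (-0.46 ± 0.17) and Ythdf3 in urethral mesenchyme (-0.43 ± 0.11). Ythdf3 in bladder (-0.22 ± 0.11) and the eraser Alkbh5 in urethral mesenchyme (0.10 ± 0.14) did not pass.

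Genes of fetal growth, several of them imprinted, fell in bladder in 7 of 10 with none rising, against 22.0% of all genes falling and 23.7% rising. In urethral mesenchyme 2 of 10 fell and 2 rose, against 10.8% and 13.6%. Igf2, the growth factor whose mRNA gave the Igf2bp family its name, fell to 77.9 ± 7.03 CPM in E18.5 bladder, against 250.6 ± 48.3 CPM in E14.5 bladder (log2 difference -1.69 ± 0.17, adjusted p = 1.7e-05). In urethral mesenchyme it had 70.4 ± 6.51 CPM at E18.5 and 79.8 ± 15.2 CPM at E14.5 (-0.18 ± 0.16, adjusted p = 0.452). The difference of these changes was -1.50 ± 0.23 (adjusted p = 0.00327), whereas for Igf2bp1, Igf2bp2 and Igf2bp3 it was 0.17 ± 0.29, 0.18 ± 0.18 and 0.14 ± 0.20, none past the threshold. Mest (-1.39 ± 0.14, adjusted p = 1.72e-05) and the receptor adaptor Grb10 (-1.12 ± 0.15, adjusted p = 0.000105) fell in bladder. Dlk1, a Notch-related imprinted gene, rose in urethral mesenchyme (1.70 ± 0.17, adjusted p = 0.00015) and had 1157 ± 107 CPM in E18.5 bladder and 1072 ± 12.2 CPM in E14.5 bladder. In urethral mesenchyme the glypican Gpc3 fell to 217 ± 12.2 CPM at E18.5, against 435 ± 91.3 CPM at E14.5 (adjusted p = 0.00117). The zinc finger gene Plag1, which Hmga2 is known to act on, fell there too (-0.61 ± 0.18, adjusted p = 0.0256). Both also fell in bladder, Gpc3 by -0.44 ± 0.15 (adjusted p = 0.0345) and Plag1 by -0.73 ± 0.18 (adjusted p = 0.00573). The imprinted RNA H19, with 2292 ± 201 CPM at E18.5 and 1941 ± 199 CPM at E14.5 in urethral mesenchyme, did not pass there. In bladder H19 fell (-0.40 ± 0.13, adjusted p = 0.0204).

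The other high-mobility-group proteins fell with Hmga2 in 5 of 7 in bladder and 4 of 7 in urethral mesenchyme, and none rose, with median log2 changes of -0.94 and -0.56. Of all genes, 22.0% fell and 23.7% rose in bladder, and 10.8% fell and 13.6% rose in urethral mesenchyme. The medians over all genes were -0.02 and -0.06. Hmgb3, a chromatin protein of progenitor cells, had 43.0 ± 3.88 CPM in E18.5 bladder against 117 ± 7.15 CPM in E14.5 bladder (log2 difference -1.44 ± 0.12, adjusted p = 8.47e-06), and fell in urethral mesenchyme (-0.96 ± 0.12, adjusted p = 0.000404). Hmgb2 and the nucleosome-binding protein Hmgn2 fell in bladder (-1.09 ± 0.15 and -1.15 ± 0.12) and in urethral mesenchyme (-0.82 ± 0.15 and -0.59 ± 0.12). Hmgn5 in bladder (-0.06 ± 0.18) and Hmgb1 in urethral mesenchyme (-0.49 ± 0.17) did not pass. Of the other 3 Trim-NHL genes, Trim3 (0.81 ± 0.15, adjusted p = 0.000925) and Trim2 (0.62 ± 0.20, adjusted p = 0.0204) rose in bladder and Trim2 rose in urethral mesenchyme (0.64 ± 0.19, adjusted p = 0.0319). Trim32 did not pass in bladder (-0.43 ± 0.17) or urethral mesenchyme (-0.47 ± 0.17).

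**Figure D4:**
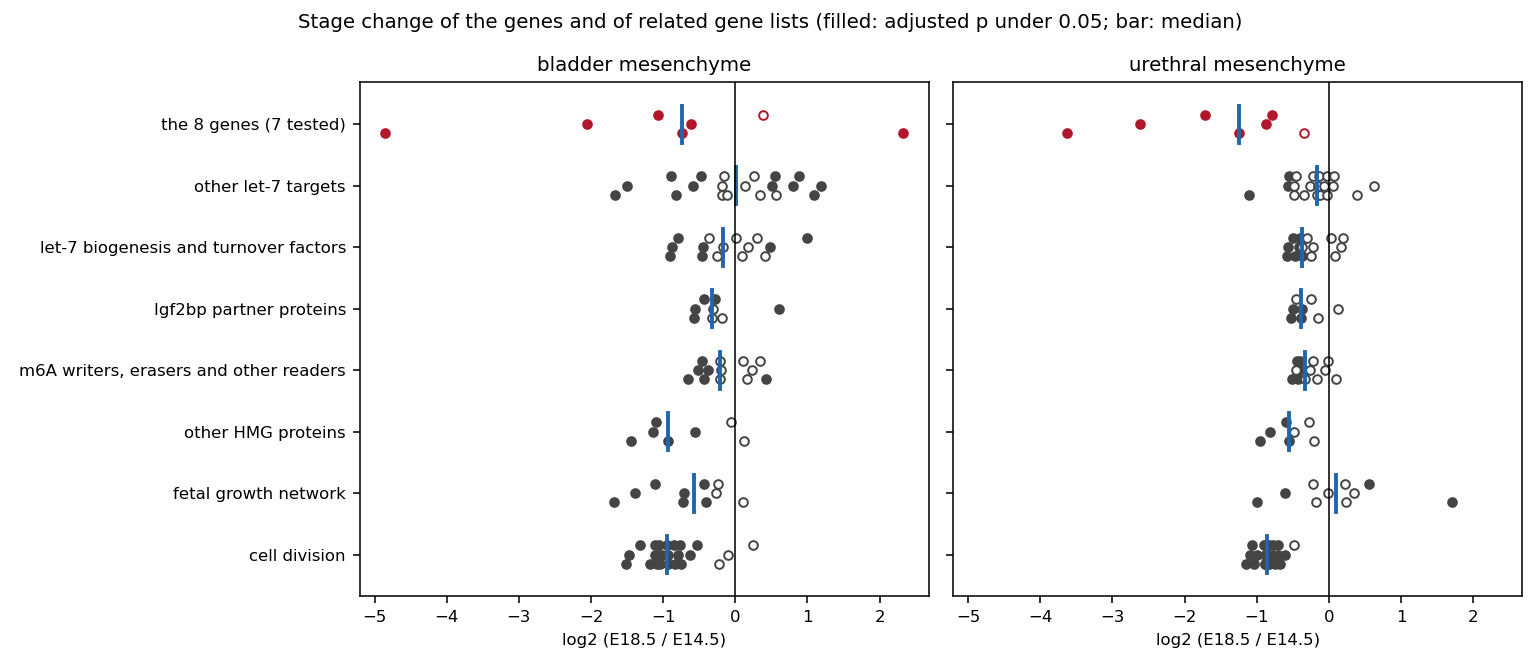
Log2 ratio of E18.5 to E14.5 (x axis) for the 7 tested genes (red) and for each tested gene of 7 related lists (grey), 1 point per gene, in bladder and urethral mesenchyme. Filled points passed an adjusted p of 0.05 and the blue bar is the list's median; the cell division list has a median of -0.94 in bladder and -0.86 in urethral mesenchyme, and the other let-7 targets of 0.01 and -0.16.

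Genes of cell division fell alongside. Of 24 tested, 21 fell in bladder and 23 in urethral mesenchyme, and none rose. Of all genes, 22.0% fell in bladder and 10.8% in urethral mesenchyme. Their summed level was 2096 to 2539 CPM in E18.5 bladder against 3368 to 4528 CPM in E14.5 bladder, and 1651 to 1878 CPM in E18.5 urethral against 2903 to 3381 CPM in E14.5 urethral mesenchyme. Rrm2, a subunit of the enzyme that makes deoxyribonucleotides, fell in bladder (log2 difference -1.31 ± 0.14, adjusted p = 2.49e-05) and urethral mesenchyme (-1.15 ± 0.14, adjusted p = 0.000342). The helicase subunit Mcm5 fell in bladder (-1.51 ± 0.15) and urethral mesenchyme (-1.04 ± 0.15), as did the thymidylate synthase Tyms (-1.47 ± 0.15 and -0.89 ± 0.14). The cyclin Ccnb1 (-1.08 ± 0.13 in bladder and -1.09 ± 0.13 in urethral mesenchyme) and the checkpoint kinase Bub1 (-1.04 ± 0.17 and -1.06 ± 0.17) also fell in both. Mki67, the proliferation marker and the most abundant that did not pass, stood at a log2 difference of 0.25 ± 0.18 in bladder (adjusted p = 0.284) and -0.48 ± 0.18 in urethral mesenchyme (adjusted p = 0.0764). Markers of red blood cells fell as well, 10 of 10 in bladder and 6 of 10 in urethral mesenchyme, with sums of 652 to 952 CPM in E18.5 bladder against 1349 to 1615 CPM in E14.5 bladder, and 700.5 to 732.5 CPM in E18.5 urethral against 749.7 to 1091 CPM in E14.5 urethral mesenchyme. In bladder, 2 of 9 endothelial and 3 of 10 neuronal markers fell and none rose, against 22.0% of all genes falling. In urethral mesenchyme 4 of 9 endothelial and 1 of 10 neuronal markers rose and none fell, against 13.6% of all genes rising. There 9 of 9 leukocyte markers rose, with sums of 221 to 238 CPM in E18.5 against 67.5 to 107.9 CPM in E14.5 urethral mesenchyme, and 11 of 11 skeletal muscle markers rose, with sums of 709 to 1177 CPM in E18.5 against 10.2 to 135 CPM in E14.5 urethral mesenchyme. The part of dividing cells and of these other cell types in the falls of Lin28b, Hmga2 and the Igf2bp genes was not tested.

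The genes whose centred log2 levels were most like each of the 7 tested over the 12 libraries were chosen by the smallest root mean square difference among 13872 genes with a mean of at least 1 CPM. For Igf2bp3 they were Ube2c (0.091) and Bub1b (0.113), both of the mitotic machinery. For Igf2bp2 they were Hnrnpr (0.074) and Ints7 (0.101), for Igf2bp1 Mtf2 and Zfp618 (0.202 each), and for Hmga1 Clptm1 (0.113) and Tecr (0.129). This difference grows with the spread of the gene itself. Trim71 lay nearest B4galnt2 (0.562) and Rspo1 (0.574), Lin28b nearest Grin2c (0.644) and Smim41 (0.654), and Hmga2 nearest Lrp8os2 (0.697) and Mcoln3 (0.757). The SD of the gene itself over the 12 libraries was 2.26 for Hmga2, 1.30 for Lin28b, 1.27 for Trim71, 0.633 for Igf2bp1, 0.561 for Igf2bp3, 0.382 for Igf2bp2 and 0.246 for Hmga1.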

How the data were processed

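RNA of 12 libraries was poly(A)-selected, made into directional libraries and sequenced as paired 100 bp reads, per the labels' protocols. HISAT2 2.2.1, SAMtools 1.9, bcl2fastq and the build GRCm38 are named in the submitters' processing notes; which tool counted reads, with which annotation and whether by strand, is not given in the sources used here. The authors deposited unnormalized counts per gene symbol, with exon coordinates and summed exon length per the file headers. Replicates are separate litters. The 8 genes, the 20 gene lists and the tests were chosen with earlier results of these data known.

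Genes passing edgeR 4.0.16 filterByExpr (minimum count 10) in R 4.3.3 were TMM-scaled and put to edgeR's robust quasi-likelihood test in a model of 4 group means (8 residual degrees of freedom), with Benjamini-Hochberg adjustment within each comparison. Positions use log2 CPM with a prior count of 2. From each list the text names up to 3 called genes with the largest change per stage comparison and the most abundant gene not called; for each gene, 2 most alike. A gene that this rule names is not reported here. Scripts were tested on simulated data. Sites were searched in GENCODE 3′ UTRs.

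Alternatives were DESeq2 1.42.0, limma-voom (limma 3.58.1), median-ratio size factors, other low-count filters, leaving out libraries, fits of the compared libraries, and replicate number as a block. Length-adjusted offsets and Hmga1 summed with Hmga1b were added after seeing the data. Compartment comparisons and the difference of stage changes used blocks within a stage, and stage comparisons used the number across stages. Each litter gave both compartments. Deviations of same-numbered E18.5 bladder and urethral libraries correlated at 0.197, 0.193 and 0.286, and differently numbered ones at -0.136 to -0.085. Libraries of different stages, which come from different litters, reached 0.182. Such values do not settle which libraries share a litter, so taking the E18.5 numbers as pairs was an assumption.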

Additional observations from a re-analysis of the deposited data

Results flagged for a closer look

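Trim71 stood out because its stage change differed between the compartments by a direct test: the bladder log2 change (E18.5 against E14.5) minus the urethral change was 4.03 ± 0.75 (edgeR quasi-likelihood test, adjusted p = 0.0073 over all genes). The direction and the call held in all 20 alternatives, with values between 3.26 and 4.81. All 3 E18.5 bladder libraries, at 4.83 to 7.33 CPM, lay above all 3 E14.5 bladder libraries, at 0.865 to 1.74 CPM. In urethral mesenchyme the groups overlapped, at 0.381 to 0.935 CPM at E18.5 and 0.794 to 3.87 CPM at E14.5.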

How the results depend on the processing

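Of 733 results of the 7 genes tested under alternatives, 690 kept their direction and side of the threshold, 27 lost the threshold, 9 gained it and 7 changed sign. The stage falls of Hmga2, Igf2bp1, Igf2bp2 and Igf2bp3 in both compartments, and the bladder rise of Trim71, passed in all 21 alternatives each. Signs changed only in differences that were not called: Lin28b between compartments at E18.5 (0.011 with limma-voom, -0.83 to 0.33 with single libraries left out, above 0 without E18.5 bladder replicate 1 or E18.5 urethral replicate 2), Igf2bp2 there (-0.16 to 0.078, above 0 without E18.5 bladder replicate 2), and the difference of stage changes for Igf2bp1 (-0.032 to 0.40, below 0 without E14.5 urethral replicate 2; -2e-04 with length-adjusted offsets) and Igf2bp3 (-0.006 with length-adjusted offsets); the cause was not tested. The number of genes lower in bladder at E14.5 was 1 with DESeq2, 3 without both E14.5 replicate 1 libraries and 0 to 2 with single libraries left out, against 0. Leaving out single libraries gave 1 to 2 higher in bladder with stage and 1 to 2 in the difference of stage changes; the second gene was Hmga1. Over all genes, calls in that difference numbered 873 higher and 758 lower. The higher calls were 1505 without E14.5 bladder replicate 1 and 1450 without both E14.5 replicate 1 libraries, but 502 to 577 without E14.5 bladder replicate 3, E14.5 urethral replicate 3, E18.5 bladder replicate 1 or E18.5 urethral replicate 1, 2 or 3. The lower calls were 470 to 497 without E14.5 bladder replicate 3, E14.5 urethral replicate 3 or E18.5 urethral replicate 2 or 3. With DESeq2, 1333 were lower. Between compartments at E14.5, 2335 genes were higher and 2342 lower in bladder; the higher calls were 1460 without E14.5 bladder replicate 3, 1403 without E14.5 urethral replicate 3 and 1384 in a fit of the compared libraries alone, and the lower calls 1395 without E14.5 bladder replicate 2 and 1261 without replicate 3. With same-numbered libraries of a stage as blocks, Hmga1 between compartments at E18.5 had adjusted p = 0.0678. These blocks were used at both stages, though only the E18.5 numbers were taken as litter pairs, which their correlations do not settle. E14.5 same-numbered libraries correlated at 0.191, -0.028 and 0.206. With the replicate number as a term across stages, the urethral fall of Trim71 had adjusted p = 0.0632. Same-numbered libraries of different stages come from different litters, so that term pairs no litters between stages. Depth limits Lin28a, at 2 to 19 counts per group, and Lin28b.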
